A study of Mus musculus with 8 samples.

Results

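Hr, Klf9, Flywch2 and Luzp1, 4 genes known as targets of thyroid hormone, were compared with 6 other genes of the Kruppel-like factor family, Klf3, Klf6, Klf7, Klf10, Klf12 and Klf13. The 10 genes were taken by symbol from the 55450 genes of the deposited tables, and all 10 had enough reads to be tested. The measured material was nuclear RNA, by RNA-seq, from fluorescent nuclei sorted from the cortex of juvenile mice, with 1 cortex per library. In all mice a Cre driver for GABAergic neurons, whose promoter the labels do not name, switched on a nuclear fluorescent reporter. Control mice were Thra+/+. Mutant mice were Thra+/AMI: in the same neurons Cre also switched on a mutant Thra, which makes a thyroid hormone receptor that acts as a dominant negative. The exact age, the sex and the strain are not given in the labels. The series has 4 controls (1 to 4) and 4 mutants (6, 7, 8 and 10), but mutants 7 and 10 had the same count in each of 55220 genes compared. Their tables thus differed by less than sampling noise and were taken as 1 sample, mutant 7. Comparisons were thus made between 4 controls and 3 mutants.

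Thyroid hormone acts through nuclear receptors that sit on the DNA of their target genes, in most cases as pairs with a retinoid X receptor. Without hormone the receptor holds corepressors at the gene, and hormone exchanges these for coactivators, while a dominant-negative receptor keeps the corepressors in place. Hr (hairless) encodes a nuclear corepressor that binds thyroid hormone, vitamin D and ROR receptors and carries a Jumonji domain. Klf9 encodes a zinc-finger repressor that responds to thyroid hormone and glucocorticoids in developing neurons, and both genes are classic readouts of the hormone in brain. Kruppel-like factors share a zinc-finger domain that binds GC-rich and CACC-type DNA, and differ in the cofactors they recruit: Klf3, Klf8 and Klf12 bind CtBP proteins, whereas Klf9, Klf10, Klf11, Klf13 and Klf16 bind Sin3 complexes.

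The promoters of the genes that were lower in mutants, and of Klf13 for comparison as the closest relative of Klf9 among the 10, are shown because they are the nearest regulatory sequence of genes that moved together. RefSeq windows (build GRCm38.p6) from 250 bases before to 50 bases after the transcription start were found for 8 of the 10 genes, all but Hr and Klf10. Capitals mark GC boxes (GGGCGG) and CACC boxes (CCACCC) on either strand, which are the kind of site that Kruppel-like and SP factors bind and which overlap each other at 1 place in the Klf13 window. The Klf9 window lies at chr19:23140976-23141275 (plus strand), that of Flywch2 at chr17:23786032-23786331 (minus), that of Luzp1 at chr4:136469511-136469810 (plus), that of Klf3 at chr5:64803271-64803570 (plus) and that of Klf13 at chr7:63938866-63939165 (minus).
Klf9: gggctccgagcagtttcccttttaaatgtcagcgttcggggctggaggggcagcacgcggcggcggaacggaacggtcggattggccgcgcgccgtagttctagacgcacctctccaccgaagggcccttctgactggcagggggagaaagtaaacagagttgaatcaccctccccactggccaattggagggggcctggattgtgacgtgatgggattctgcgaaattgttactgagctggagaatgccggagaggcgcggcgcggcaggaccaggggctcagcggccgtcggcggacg
Flywch2: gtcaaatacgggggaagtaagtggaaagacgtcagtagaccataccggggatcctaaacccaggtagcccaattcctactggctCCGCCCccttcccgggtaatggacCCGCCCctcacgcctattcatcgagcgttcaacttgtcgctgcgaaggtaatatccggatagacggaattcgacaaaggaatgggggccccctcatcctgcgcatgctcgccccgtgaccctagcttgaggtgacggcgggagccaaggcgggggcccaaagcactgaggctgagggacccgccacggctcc
Luzp1: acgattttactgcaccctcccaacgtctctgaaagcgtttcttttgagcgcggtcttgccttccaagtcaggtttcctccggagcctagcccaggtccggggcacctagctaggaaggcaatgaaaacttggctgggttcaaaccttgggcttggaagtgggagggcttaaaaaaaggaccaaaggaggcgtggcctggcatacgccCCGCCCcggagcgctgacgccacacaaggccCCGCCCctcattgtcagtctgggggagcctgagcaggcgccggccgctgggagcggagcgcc
Klf3: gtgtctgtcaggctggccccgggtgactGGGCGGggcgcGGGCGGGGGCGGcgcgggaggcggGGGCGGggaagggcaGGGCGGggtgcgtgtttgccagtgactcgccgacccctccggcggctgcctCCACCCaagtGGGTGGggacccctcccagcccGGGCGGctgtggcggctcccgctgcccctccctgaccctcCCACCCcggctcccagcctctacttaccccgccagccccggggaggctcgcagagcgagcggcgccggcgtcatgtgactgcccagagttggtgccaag
Klf13: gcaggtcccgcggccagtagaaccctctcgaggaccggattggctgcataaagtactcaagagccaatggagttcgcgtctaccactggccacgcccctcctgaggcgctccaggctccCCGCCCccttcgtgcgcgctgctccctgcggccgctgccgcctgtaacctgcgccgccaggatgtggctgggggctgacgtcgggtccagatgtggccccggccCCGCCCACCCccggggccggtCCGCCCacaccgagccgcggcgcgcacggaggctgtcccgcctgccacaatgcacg
The Klf9 window held no such box, and those of Flywch2 and Luzp1 held 2 GC boxes each. The Klf3 window held 6 GC boxes and 3 CACC boxes, and that of Klf13 held 3 GC boxes and 1 CACC box. The windows not shown held 1 GC box (Klf6), 1 GC box and 3 CACC boxes (Klf7), and none (Klf12). Of all 32851 RefSeq promoter windows of this length, 35.7% held a GC box and 31.5% a CACC box. These shares do not allow for base composition. The windows shown had 60.7% (Flywch2) to 76.7% (Klf3) G and C bases, against a median of 52.7% over all windows. The half-site that thyroid hormone receptors bind (AGGTCA, either strand) was in 0 of the 8 windows and in 16.3% of all windows. A direct repeat of it with 4 bases between the copies was in 5 of the 32851 windows, or 0.0152%. These letters say nothing of sites outside the windows.

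Library totals of controls were 11797788 to 13804734 reads and those of mutants 10747169 to 12941251 reads, so that 1 read was worth 0.0724 to 0.093 CPM (counts scaled to the library total). Thra itself, counted over both alleles, had a mean of 114 CPM over the 4 controls (SD 9.35) and of 87.5 CPM over the 3 mutants (SD 9.39), with a log2 fold change of -0.39 that did not pass the test (edgeR, adjusted p 0.0543). The GABAergic markers Gad1 (569 CPM in controls, 637 in mutants), Gad2 (403 and 435) and Slc32a1 (24.7 and 24.3) were present in all libraries, and Slc17a7, the main vesicular glutamate transporter of cortex, was at 72.2 CPM in controls and 67.2 in mutants. Dlx1, Gfap and P2ry12 were listed at 0 in every library, so these were of no use as markers. Controls 1 and 4 stood apart from the other libraries by gene length. In control 1, genes under 10 kb were at a median log2 difference of 0.27 from the mean of all libraries and genes over 100 kb at -0.35; in control 4 these medians were -0.19 and 0.36, and in the other 5 libraries they were between -0.07 and 0.07.

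All 4 thyroid hormone targets were lower in mutants, with a median log2 fold change of -1.54. Hr kept 15.8% of its control level, Flywch2 26.7%, Klf9 44.3% and Luzp1 67.4%. Of the 6 other Kruppel-like factors, Klf3 was lower and Klf6 higher, and Klf7, Klf10, Klf12 and Klf13 did not pass the test. Their median log2 fold change was 0.22. Calls were made from edgeR's quasi-likelihood fit of 16448 genes, at a threshold of 0.05 on the adjusted p. In that fit 9.42% of all genes were called, 4.78% lower and 4.63% higher, and the median log2 fold change was -0.01. The CPM values of the 2 groups did not overlap for 6 of the 10 genes, the same 6 that were called, against 22.0% of all tested genes.

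**Figure D1:**
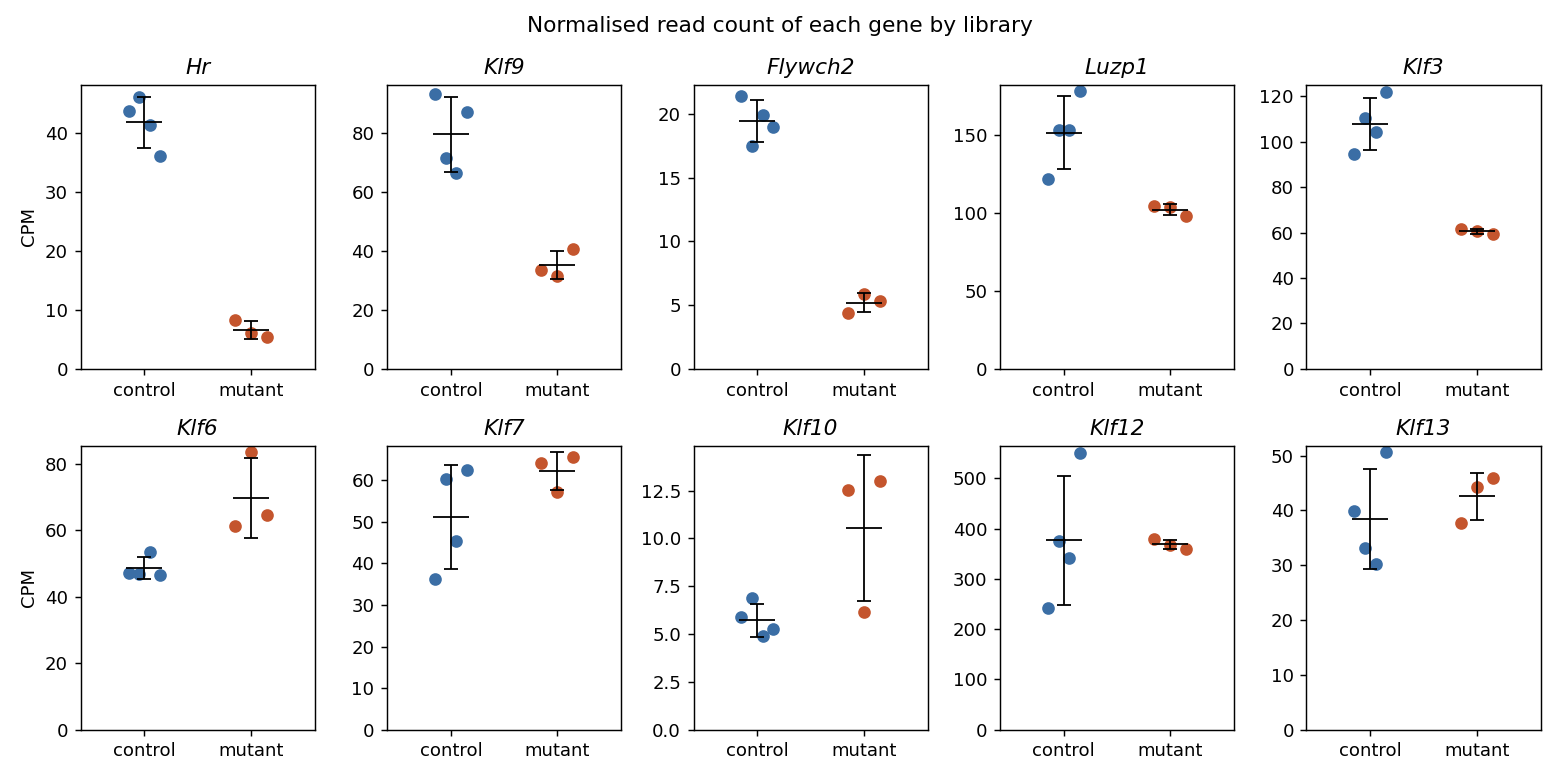
Normalised read count (CPM, linear axis from 0) of each of the 10 genes in 4 control and 3 mutant libraries; each point is a library, the horizontal mark is the mean and the bars are 1 SD. Hr, Klf9, Flywch2, Luzp1 and Klf3 lie lower in all 3 mutants than in any control, Klf6 lies higher, and the groups overlap in the other 4 genes.

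Hr (ENSMUSG00000022096.14, GRCm38 chromosome 14, 70552212 to 70573548, plus strand) stood at 43.7, 45.9, 41.3 and 36.0 CPM in controls 1 to 4, and at 8.22, 6.15 and 5.40 CPM in mutants 6, 7 and 8. Even the highest mutant was far under the lowest control, which was control 4. The reads behind these values numbered 446 to 608 in controls and 67 to 105 in mutants. This was a log2 fold change of -2.66 (SE 0.17, 95% interval -3.04 to -2.28, edgeR adjusted p 3.75e-06), a fall of 6.32 times. By p-value Hr ranked 12th of the 16448 genes.

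Flywch2 (ENSMUSG00000023911.12, chromosome 17, 23776916 to 23786081, minus strand) encodes a small protein with a FLYWCH zinc finger whose function is little known. Controls 1 to 4 had 21.4, 17.5, 19.9 and 19.0 CPM, against 4.38, 5.88 and 5.32 CPM for mutants 6, 7 and 8. Each group was tight, and the 2 groups were well apart. The fitted change was -1.90 on the log2 scale (SE 0.18, interval -2.29 to -1.52, edgeR adjusted p 5.3e-05), the second largest fall among the 10 genes. The related gene Flywch1, on the same chromosome, was at 226 ± 6.78 CPM in controls and 184 ± 7.35 in mutants (log2 fold change -0.30, adjusted p 0.106 in edgeR).

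Klf9 (ENSMUSG00000033863.2, chromosome 19, 23141226 to 23168134, plus strand) was at 93.1, 71.3, 66.3 and 87.0 CPM in controls 1 to 4. In mutants 6, 7 and 8 it was at 33.4, 31.6 and 40.5 CPM. Controls 1 and 4 were both above controls 2 and 3, although these libraries lay at opposite ends of the gene-length trend. The log2 fold change was -1.17 (SE 0.15, interval -1.49 to -0.86, adjusted p 0.000389 in edgeR), and it was -0.97 with controls 2 and 3 alone. Its interval lay wholly above that of Hr and also above that of Flywch2, so among these 3 genes Klf9 had the smallest fitted change. A test of these differences between genes was not run.

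Luzp1 (ENSMUSG00000001089.14, chromosome 4, 136469761 to 136554780, plus strand) encodes a leucine zipper protein that binds actin filaments and is found at centrosomes and the nucleus. It was at 122, 153, 154 and 178 CPM in controls 1 to 4 and at 105, 104 and 98.5 CPM in mutants 6, 7 and 8. The mutants were close together, while the controls spread in the order of the gene-length trend, with control 1 lowest and control 4 highest. Luzp1 fell by 0.57 on the log2 scale (SE 0.13, interval -0.85 to -0.29, edgeR adjusted p 0.0159). The call was lost without control 2, control 3, or mutant 6, 7 or 8, at adjusted p-values of 0.0509 to 0.0962. The log2 fold changes in these runs were -0.59 to -0.54. Calls over all genes also fell in them, from 1549 to between 734 and 1046. With an offset for genomic length the change was -0.57 and the adjusted p 0.0002.

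Klf3 (ENSMUSG00000029178.14, chromosome 5, 64803388 to 64832901, plus strand), a repressor that works with CtBP, was not among the hormone targets chosen but fell with them. Controls 1 to 4 gave 94.5, 111, 104 and 122 CPM, whereas mutants 6, 7 and 8 gave 61.6, 60.9 and 59.5 CPM. The 3 mutants were close to each other and were all under the lowest control, control 1. The fit gave a log2 fold change of -0.83 (SE 0.11, interval -1.07 to -0.58, edgeR adjusted p 0.00068), with no loss of the call in any alternative run. Klf3 thus changed more than Luzp1 by point estimate, though their intervals overlapped. Of the exons of Klf3, 3.59% of bases are shared with genes on the opposite strand.

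Klf6 (ENSMUSG00000000078.7, chromosome 13, 5861482 to 5870394, plus strand), a factor induced early after injury and growth signals, was the only one of the 10 genes called higher in mutants. Controls 1 to 4 were at 47.3, 46.8, 53.4 and 46.5 CPM, and mutants 6, 7 and 8 at 61.2, 83.5 and 64.6 CPM. Control 3 was the highest control and mutant 7 stood above the other 2 mutants. Klf6 rose by 0.52 on the log2 scale (SE 0.13, interval 0.25 to 0.80, edgeR adjusted p 0.0213). It was 0.38 without mutant 7 (adjusted p 0.136), and the call was also lost without control 2 (0.51, adjusted p 0.0704) or mutant 8 (0.58, adjusted p 0.0518).

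Klf10 (ENSMUSG00000037465.10, chromosome 15, 38291463 to 38300706, minus strand), an early response gene of TGF-beta signalling, had the fewest reads of the 10 genes summed over the 7 libraries (687), with 64 to 166 per library. It was at 5.87, 6.88, 4.87 and 5.24 CPM in controls 1 to 4, and at 12.5, 6.15 and 13.0 CPM in mutants 6, 7 and 8. Mutants 6 and 8 were above all controls, while mutant 7 lay among the controls. Mutant 7 thus had the highest Klf6 and the lowest Klf10 of the mutants. The log2 fold change was 0.89 (SE 0.26, interval 0.32 to 1.45), and it just missed the threshold in edgeR (adjusted p 0.0521). Without mutant 7 it was 1.16 (adjusted p 0.0141), and it also passed without control 1 (0.91, adjusted p 0.0425) or control 4 (0.85, adjusted p 0.0414) and with DESeq2 (0.89, adjusted p 0.0157). Over all single-library removals the adjusted p reached 0.234.

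Some genes that neurons switch on early after activity were called higher in the same libraries. In a list of 7 such genes chosen with earlier results known, 6 were tested and all 6 had a positive log2 fold change, with a median of 0.49. In the same fit, 7888 of all 16448 tested genes had a positive log2 fold change and 4.63% were called higher. Fos (0.83), Npas4 (1.11) and Nr4a1 (0.58) were called higher, with adjusted p-values of 0.029, 0.0221 and 0.0232 in edgeR, whereas Junb (0.13), Egr1 (0.13) and Arc (0.41) were not called. The CPM of Fos overlapped between the groups. Fos was not called without control 2, control 3, mutant 6 or mutant 7, Npas4 without mutant 6 or mutant 7, and Nr4a1 without control 2, control 3, or any 1 mutant, at adjusted p-values up to 0.178. The summed level of the list was 131 to 161 CPM in controls and 194 to 222 CPM in mutants. In mutants 6, 7 and 8, Fos was at 27.4, 29.8 and 14.9 CPM, Npas4 at 16.4, 18.0 and 11.3, and Nr4a1 at 87.5, 74.5 and 70.6. Among these mutants Klf6 was highest in mutant 7, while Klf10 was lowest in mutant 7 and highest in mutant 8. The part of the listed genes in the values of Klf6 and Klf10 was not tested.

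Klf12 (ENSMUSG00000072294.5, chromosome 14, 99870632 to 100284679, minus strand), a repressor that also binds CtBP, is the longest of the 10 genes at 414.0 kb. It was at 242, 376, 341 and 549 CPM in controls 1 to 4 and at 379, 367 and 360 CPM in mutants 6, 7 and 8. The controls thus spread over more than the whole mutant range, again with control 1 lowest and control 4 highest. Its fitted log2 fold change was -0.03 (SE 0.22, interval -0.51 to 0.44, edgeR adjusted p 0.958), and without control 4 it was 0.20 (adjusted p 0.407).

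Klf13 (ENSMUSG00000052040.10, chromosome 7, 63886351 to 63938915, minus strand) encodes a repressor closely related to Klf9. It was at 40.0, 33.1, 30.2 and 50.7 CPM in controls 1 to 4 and at 37.7, 44.3 and 45.8 CPM in mutants 6, 7 and 8. Mutants lay within the range of the controls. Its log2 fold change came to 0.15 (SE 0.17, interval -0.22 to 0.51, adjusted p 0.685 in edgeR). With limma-voom and sample quality weights it was 0.37 (adjusted p 0.0481), and with controls 2 and 3 alone it was 0.43 (adjusted p 0.0175).

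Klf7 (ENSMUSG00000025959.13, chromosome 1, 64029447 to 64122282, minus strand), a neuronal factor linked to axon growth, was at 36.2, 60.4, 45.3 and 62.4 CPM in controls 1 to 4. In mutants 6, 7 and 8 it was at 64.2, 57.1 and 65.5 CPM. Mutants 6 and 8 thus lay above every control, and mutant 7 lay within their range. Klf7 had a log2 fold change of 0.29 (SE 0.17, interval -0.08 to 0.66, adjusted p 0.364 in edgeR). Since 39.36% of its exon bases are shared with genes on the opposite strand and the strand setting of the counting is not given in the sources used here, its counts are uncertain.

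**Figure D2:**
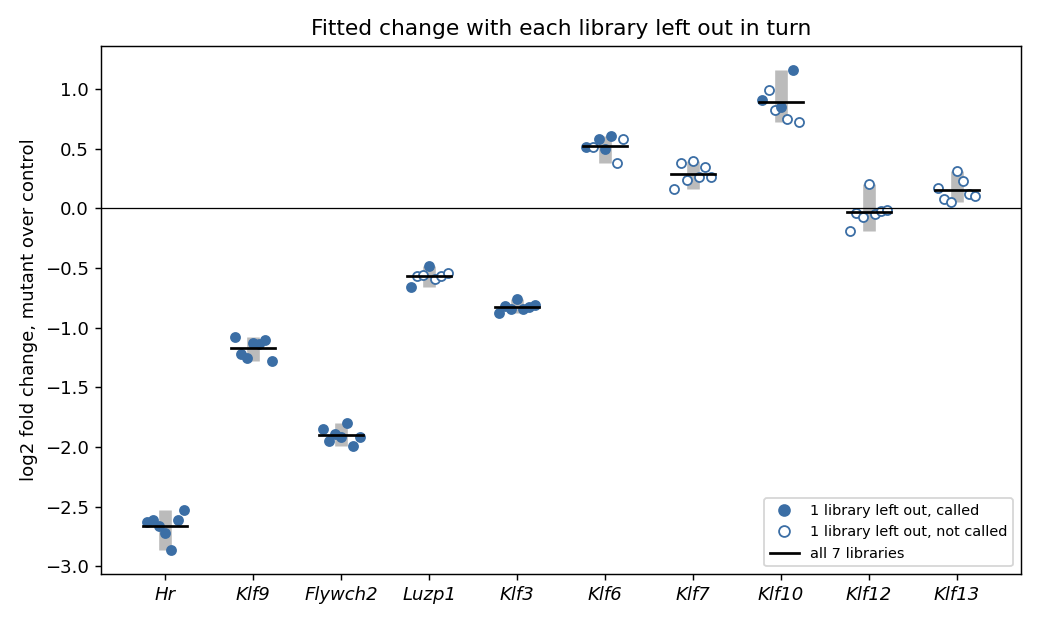
Log2 fold change of mutant over control (vertical axis) for the 10 genes, with all 7 libraries (black line) and with each library left out in turn (points over a grey bar of their range; filled where the gene was called, open where it was not). Hr runs from -2.86 to -2.53, Flywch2 from -1.99 to -1.80 and Klf9 from -1.28 to -1.08, always called; Luzp1, Klf6 and Klf10 are called in some removals only.

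Klf9 and Klf13 were set against each other within each library, since a ratio of 2 genes does not depend on how libraries are scaled. The Klf9 reads were 2.33, 2.16, 2.19 and 1.72 times the Klf13 reads in controls 1 to 4. For mutants 6, 7 and 8 the ratios were 0.886, 0.714 and 0.884. Klf9 had more reads than Klf13 in every control and fewer in every mutant. These reads were not divided by gene length, and the merged exons span 4.82 kb in Klf9 and 7.53 kb in Klf13. Per kilobase of merged exons, Klf9 stayed above Klf13 in mutants (means of 7.30 and 5.66 CPM), with no overlap. The mean log2 ratio was 1.06 ± 0.194 in controls (SD, n = 4) and -0.28 ± 0.179 in mutants (SD, n = 3). The difference of -1.34 had p = 0.0286 in an exact permutation test over the 35 ways to assign 4 and 3 labels (two-sided, by absolute difference), which is the lowest p this design allows.

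**Figure D3:**
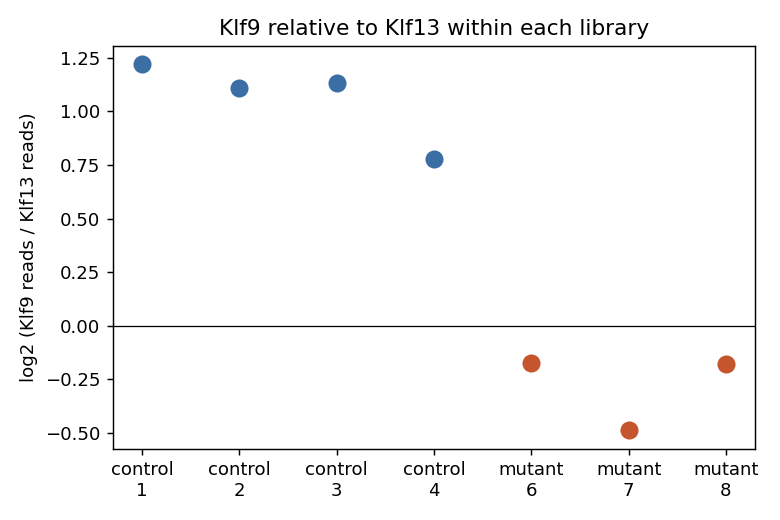
Log2 ratio of Klf9 reads to Klf13 reads (vertical axis) in each of the 7 libraries, with controls in blue and mutants in red. The 4 controls lie between 0.779 and 1.22 and the 3 mutants between -0.487 and -0.175, on the other side of equal reads. Reads are not divided by exon length, so equal reads are not equal levels.

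Levels of different genes were compared as CPM per kilobase of merged exons. Whether reads outside exons were also counted is not known, so the place of a long gene such as Klf12 (414.0 kb) is uncertain. In controls Klf12 was highest at 54.0 ± 18.4, followed by Flywch2 (19.5 ± 1.67), Luzp1 (18.7 ± 2.85) and Klf9 (16.5 ± 2.64). The ranges of these last 3 overlapped from one to the next and lay under that of Klf12. Below these came Klf6 (11.1 ± 0.752) and Klf3 (9.58 ± 1.02), which overlapped each other. Klf7 (6.28 ± 1.54), Hr (6.03 ± 0.619) and Klf13 (5.11 ± 1.21) likewise overlapped with their neighbours in the order, and Klf10 was lowest at 1.37 ± 0.210. In mutants Klf12 was still highest at 52.7 ± 1.38, but Klf6 came next (15.9 ± 2.74), above Luzp1 (12.6 ± 0.420) with no overlap. Klf9 (7.30 ± 0.980) lay beside Klf7 (7.66 ± 0.556). Flywch2 went from the second place to the eighth at 5.21 ± 0.758, and Hr, at 0.952 ± 0.211, came last with all its values under those of Klf10. The length used matters for Klf3: per kilobase of the longest transcript it was at 20.6 in controls.

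**Figure D4:**
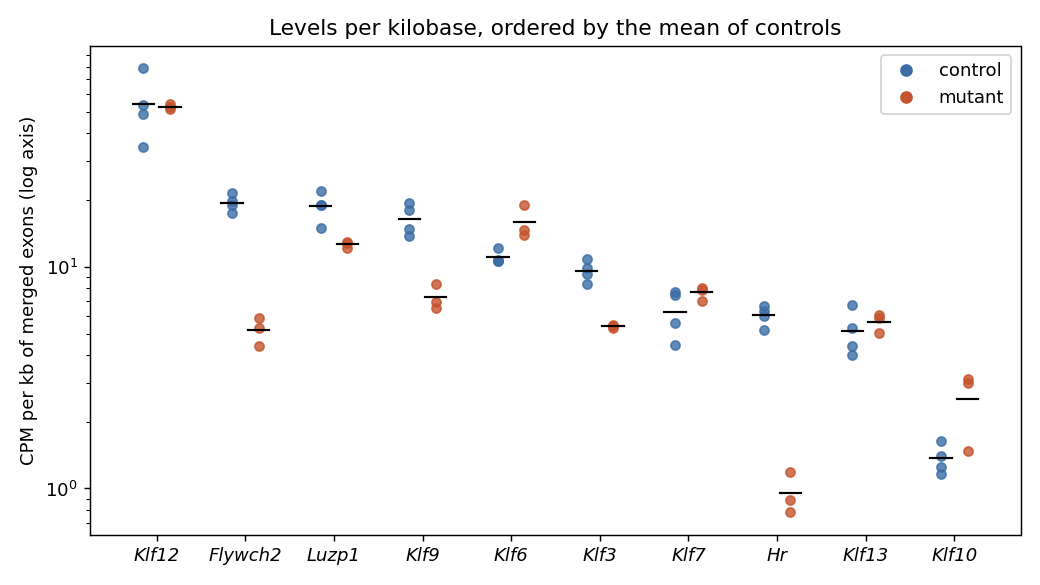
CPM per kilobase of merged exons (log axis) of the 10 genes in controls (blue) and mutants (red), ordered by the mean of controls; points are libraries and black lines are means. Klf12 is highest in both groups, while Hr drops from 6.03 to 0.952 and Flywch2 from 19.5 to 5.21.

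The rest of the KLF and SP family was examined from a list of 19 genes, of which 13 had enough reads to be tested. Klf8, a CtBP-binding repressor related to Klf3 and Klf12, was the one called gene: it was at 19.8 ± 7.45 CPM in controls and 36.2 ± 0.162 CPM in mutants (log2 fold change 0.87, SE 0.22, adjusted p 0.0288 in edgeR), higher in all 3 mutants than in any control. Its call was lost without control 2, control 3, or mutant 6, 7 or 8 (log2 fold changes of 0.72 to 1.15 over all 7 removals, adjusted p up to 0.104). The other 12 had log2 fold changes from -0.64 to 0.60 and the median of the 13 was -0.02. Klf15, a glucocorticoid-responsive factor singled out after its values were seen, was at 29.7 ± 7.65 and 19.0 ± 0.752 CPM (log2 fold change -0.64, adjusted p 0.0509 in edgeR).

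**Figure D5:**
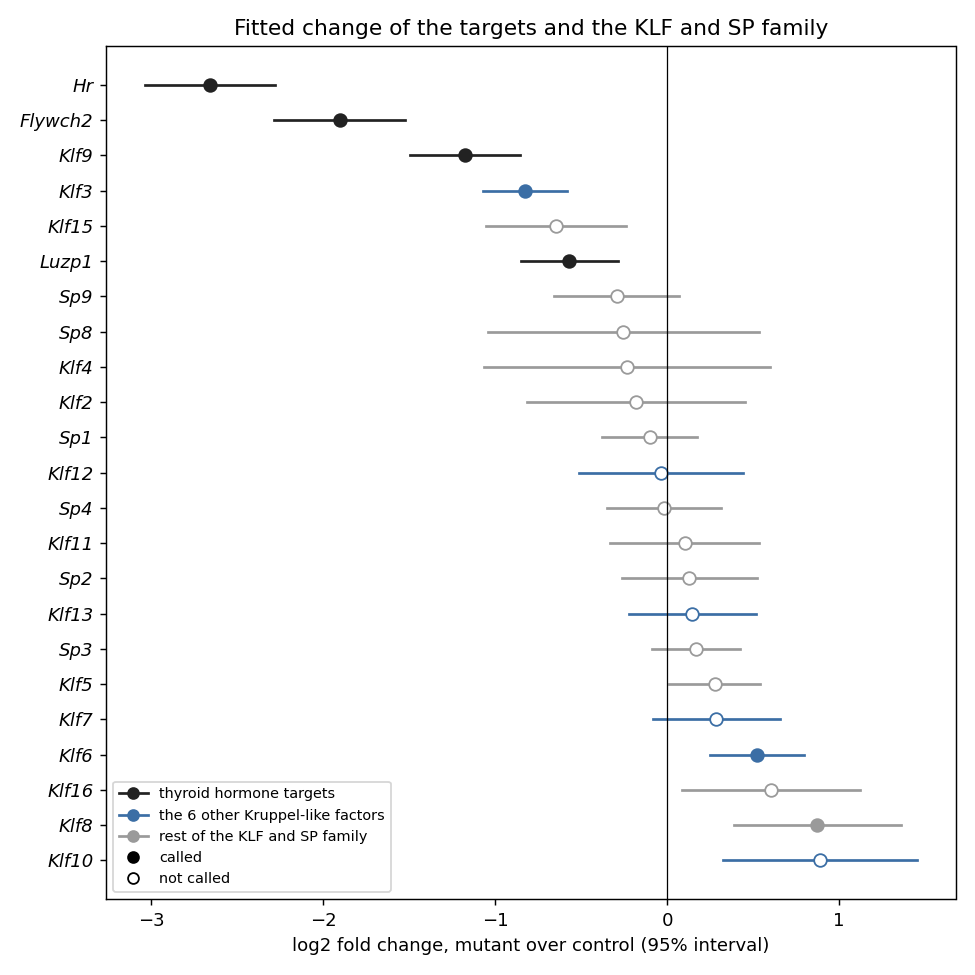
Log2 fold change of mutant over control with its 95% interval for the 4 thyroid hormone targets (black), the 6 other Kruppel-like factors (blue) and the 13 tested genes of the rest of the KLF and SP family (grey); filled points were called and open points were not. Klf9 at -1.17 and Klf3 at -0.83 lie lowest in the family. Klf6, Klf8, Klf10 and Klf16 lie at 0.52 to 0.89, of which Klf10 and Klf16 were not called.

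Partners of these proteins were examined from lists in the same fit. Among cofactors of the Kruppel-like factors, Sin3a (log2 fold change 0.15), Sin3b (0.06), Ctbp1 (0.01) and the histone deacetylase Hdac3 (-0.22) were not called. Kdm3a, Kdm3b and Jmjd1c, the Jumonji relatives of Hr, had log2 fold changes of 0.11, 0.09 and -0.32, and none was called. Of 8 nuclear receptors that bind Hr or thyroid hormone, Rora was the one called, at 660 ± 358 CPM in controls and 303 ± 33.2 in mutants (log2 fold change -1.12, SE 0.32, adjusted p 0.0459 in edgeR). Over single-library removals its log2 fold change ran from -1.31 to -0.68, and it was not called without control 2, control 3, or mutant 6, 7 or 8 (adjusted p up to 0.191). Rora in controls was lowest in control 1 and highest in control 4, and with the genomic length offset its log2 fold change was -1.05 (adjusted p 1.4e-05). Thrb, the other thyroid hormone receptor gene, was at 405 ± 181 and 344 ± 37.2 CPM (log2 fold change -0.23, adjusted p 0.685).

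Other thyroid hormone-responsive genes numbered 10 in the list, of which 9 were tested. Dbp, Sema7a and Shh were called, all lower, at log2 fold changes of -1.17, -1.18 and -1.55, with adjusted p-values of 0.00362, 0.00351 and 0.0371 in edgeR. Shh rested on 4 to 29 reads and was not called without control 1, control 3, or mutant 6, 7 or 8 (adjusted p up to 0.173), while Dbp and Sema7a kept their calls. The 6 others, Nrgn, Aldh1a1, Itih3, Stard4, Thrsp and Camk4, had log2 fold changes from -0.59 to 0.60 and were not called. The point estimates of Dbp and Sema7a were near that of Klf9, and none of the 9 reached that of Flywch2 or Hr.

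By likeness of pattern over the 7 libraries, the genes nearest to Hr among 11796 with a mean of at least 5 CPM were Itga7, Ltbp2 and Hapln4. The measure was the root mean square difference of log2 CPM, each gene centred on its own mean, which was 0.193 for Itga7, 0.28 for Ltbp2 and 0.286 for Hapln4. Itga7, an integrin alpha subunit, went from 36.6 CPM in controls to 6.54 CPM in mutants (log2 fold change -2.49). The genes nearest to Klf9 were Btbd3 (0.114), Cgrrf1 (0.122) and Tcte1 (0.128), with log2 fold changes of -1.06, -1.14 and -1.31. These are descriptions of 7 libraries in 2 groups and carry no test.

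Markers of neuron classes moved in the same libraries. Of 5 parvalbumin neuron markers 3 were called lower: Pvalb from 41.0 ± 5.91 to 1.81 ± 0.682 CPM, Syt2 and Kcnc1, while Kcnc2 and Tac1 were not called. Of 5 somatostatin neuron markers 3 were called higher (Sst, Calb1 and Crhbp) and Npy lower. Sst was not called without mutant 7 (adjusted p 0.0551), nor Npy without mutant 6 or mutant 8 (adjusted p up to 0.0688). Of 4 VIP neuron markers Cck was called higher and Crh lower, and of 4 LAMP5 neuron markers Sv2c was called higher. The calls of Cck and Sv2c were lost without control 2, control 3, or any 1 mutant, and that of Crh without control 2 or any 1 mutant. The summed parvalbumin list was at 1780 to 2810 CPM in controls and 1990 to 2250 in mutants, and the somatostatin list at 570 to 793 and 894 to 1120. Most of the parvalbumin sum was Kcnc2, with a mean of 1470 CPM in controls and 1820 in mutants. That sum therefore hides the falls of Pvalb, Syt2 and Kcnc1. In bulk RNA, fewer cells of a class and less RNA per cell cannot be told apart, and the part of these classes in the values of the 10 genes was not tested. Summed markers of cells that the sort should remove overlapped between groups: 76.8 to 143 CPM in controls and 81.9 to 135 in mutants for glutamatergic neurons, 58.8 to 109 and 64.8 to 74.0 for astrocytes, and 43.8 to 92.5 and 45.1 to 65.8 for endothelial cells. The same held for oligodendrocytes, at 151 to 189 and 168 to 200 CPM, and microglia, at 12.1 to 17.1 and 15.1 to 19.8 CPM. Of the tested markers of these 5 cell types, Mog was the one called, higher in mutants (log2 fold change 0.93, adjusted p 0.00545 in edgeR).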

How the data were processed

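Nuclear RNA of sorted cortical nuclei was converted to cDNA with a SMART-Seq kit, made into Nextera XT libraries and sequenced as read pairs, per the labels' protocols. PCR reads without molecular identifiers are not independent molecules, so counting error understates the error. The authors deposited 1 table per sample of raw read counts by gene, not normalized, as the whole numbers and unequal totals show. Bowtie2 2.5.3 and the builds mm10 and GRCm38 are named, with no role, per the submitters' processing notes; the counting program and its strand setting are not given in the sources used here. All 55450 gene identifiers matched GENCODE M21 (GRCm38), which gave symbols, coordinates and exon lengths. The table of mutant 10, keyed by symbol, repeated that of mutant 7 and was left out; which animal gave the counts is not known.

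Counts were fitted in R 4.3.3 with edgeR 4.0.16 (filterByExpr with least count 10 and least total 15, TMM, robust quasi-likelihood F-test, group as the only term), two-sided, with Benjamini-Hochberg adjustment over the 16448 tested genes and a threshold of 0.05. SE is the log2 fold change divided by the square root of F. CPM were scaled by TMM over the tested genes. Each library is 1 cortex, and no replicate number is shared between groups. The fit was tested on simulated counts. Alternatives were RLE size factors, DESeq2 1.42.0, limma 3.58.1 voom with quality weights, no filter, an offset per library from a lowess on genomic length, and leaving out each library; controls 2 and 3 alone were added after seeing the data.

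The 10 genes and all lists were chosen with earlier results of these data known. The text names every one of the 10 in every library, every called gene of the lists on families, cofactors, receptors and hormone-responsive genes, the 3 genes nearest in pattern to Hr and to Klf9, and cell markers; exceptions are marked, and some listed genes are not reported here.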

Additional observations from a re-analysis of the deposited data

Results flagged for a closer look

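Of the 10 genes, Klf6 had 1 control far from the other controls relative to their range: control 3 stood at 53.4 CPM, with controls 1, 2 and 4 between 46.5 and 47.3 CPM. The gap to the nearest control was 0.894 of the range. Chance flags about 1 in 20 groups, and only the 4 controls of each gene could be examined in this way, since 3 mutants are too few. Without control 3 the log2 fold change of Klf6 was 0.58 (adjusted p 0.0355 in edgeR).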

How the results depend on the processing

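Of 130 log2 fold changes recomputed for the 10 genes under alternatives, 109 kept their direction and their side of the threshold, 10 newly passed, 8 no longer passed and 3 changed sign, all of Klf12. Hr, Klf9, Flywch2 and Klf3 were called in every alternative run. Klf10 passed with DESeq2 (0.89), limma-voom (0.87), no filter (0.89), the genomic length offset (0.91) and controls 2 and 3 alone (0.85), and Klf13 with limma-voom (0.37) and controls 2 and 3 alone (0.43). Klf12 was at 0.05 with limma-voom and 0.04 with controls 2 and 3 alone, and the cause was not tested. The 6 other Kruppel-like factors had 4 calls with limma-voom and 4 with controls 2 and 3 alone. The count over all genes was 3134 with limma-voom, 2753 with the length offset and 2778 with controls 2 and 3 alone, against 1549. Without single libraries the log2 fold changes ran from -0.66 to -0.48 for Luzp1, 0.38 to 0.61 for Klf6, 0.72 to 1.16 for Klf10 and -0.19 to 0.20 for Klf12. The calls ran from 3 to 4 of the targets, 1 to 3 of the other factors and 734 to 2347 genes, with the lowest counts of genes without mutant 6 (766), 7 (734) or 8 (816), then control 3 (1016), and the highest without control 4 (2347). The Klf9 to Klf13 difference ran from -1.43 to -1.24 without single libraries, where the smallest p the design allows is 0.0667 or 0.1, and was -1.34 with 0.5 counts added. Levels per kilobase of the longest transcript were 7.44 for Hr, 21.8 for Flywch2, 20.6 for Klf3 and 1.88 for Klf10. Klf10 rested on 64 to 166 reads per library and Flywch2 on 56 to 270. No paired analysis was possible because the groups share no replicate numbers.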
